A study of Mus musculus with 32 samples.

Results

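VIP interneurons of the mouse cortex were set against SST interneurons of the same region through the RNA that each population holds on ribosomes. The members were the 8 libraries titled as cortical VIP (4) and cortical SST (4), out of 32 libraries of the series, and they were chosen by title and tissue label alone. Both groups carry the genotype label WT, come from tissue labelled as murine cortex and hold RNA labelled as ribosome-associated. The remaining 24 libraries, 4 each, were PV, Scnn and CamK neurons of the cortex and SST, CamK and Grik neurons of the hippocampus. No source used here gives the allele or promoter that marked each population, the age of the mice or whether animals were pooled. The titles of the VIP libraries carry a W, as do those of the hippocampal groups, whereas the titles of the cortical SST libraries do not. A difference between VIP and SST cortex can therefore not be told apart from a difference between these 2 kinds of title. Nothing in the labels says that replicates came from separate animals, so p-values measure the spread between libraries, which may be technical.

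VIP and SST cells are classes of GABAergic interneurons, named after vasoactive intestinal peptide and somatostatin, the neuropeptides that they make. SST interneurons derive from the medial ganglionic eminence and mostly inhibit the dendrites of pyramidal neurons. VIP interneurons derive from the caudal ganglionic eminence and mostly inhibit other interneurons, SST cells among them, so that their activity can release pyramidal neurons from inhibition. These statements are background and were not measured here.

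The measured units were features with identifiers of the form GSMG and digits. The files hold no gene name beside an identifier, and 0 identifiers were matched in the reference annotation, so neither the neuropeptide genes nor any other marker of the 2 classes could be looked up. The labels were therefore not checked against defining markers, markers of glia or of other neurons were not measured, and no sequence is shown. The features with the largest differences are given by identifier, 2 in each direction, and all others by counts, levels and lengths.

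Counts summed to between 100158438 and 106514157 in the VIP libraries and between 104350512 and 109618936 in the SST libraries. The members of each population were more alike than the populations were. Spearman correlations across features were 0.983 to 0.987 among the VIP libraries and 0.980 to 0.984 among the SST libraries, against 0.935 to 0.947 between a VIP and an SST library; features are not independent replicates, and these values carry no test. Among the 14679 features that averaged 1 CPM or more in the series, the median coefficient of variation was 9.17% in VIP and 9.53% in SST. CPM are counts as a proportion of the library's total, scaled by TMM, edgeR's correction for library composition, whose factors were 1.14 to 1.24 in VIP libraries and 0.985 to 1.04 in SST libraries.

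The ribosome-associated profile of VIP neurons differed from that of SST neurons in 5831 of 24555 tested features (23.7%), and most of the called features were higher in VIP. The rule for a call was a difference of at least 2-fold with an adjusted p below 0.05 in edgeR's quasi-likelihood test, adjusted by Benjamini-Hochberg over all tested features. Under this rule 4436 features (18.1% of those tested) were higher in VIP and 1395 (5.68%) were lower, so that 76.1% of the calls were higher. The median log2 fold change, VIP minus SST, was 2.44 among features higher in VIP and -1.73 among features lower in VIP, beside 0.07 over all tested features. In bulk samples, fewer cells of a type and less RNA per cell cannot be told apart.

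The excess on the VIP side was larger among differences of at least 2-fold than among all differences. At an adjusted p under 0.05 with no fold threshold, 6105 features were higher (24.9% of those tested) and 6353 were lower (25.9%), which leaves 49.0% higher. This balance depends on the scaling of the libraries. It was 56.5% higher with DESeq2 size factors and 68.6% with library totals without TMM, which moved the median log2 fold change of all tested features by 0.22. With the 2-fold rule the same scalings gave 79.1% and 84.0% of calls higher in VIP. Among called differences of 2 to 4-fold, 1521 features were higher in VIP and 808 were lower. Between 4 and 8-fold these numbers were 1506 and 277, and above 32-fold they were 363 and 98. At 8-fold or more, 1409 features (5.74% of those tested) were higher and 310 (1.26%) were lower. Some of these folds rest on no count in the other population, since 259 features called higher in VIP had 0 counts in all SST libraries and 54 called lower had 0 in all VIP libraries. With these set at the bound that 3 counts over the 4 libraries allow, 1364 features were at least 8-fold higher in VIP and 294 at least 8-fold lower. Both mates of a pair appear to be counted, so 3 counts stand for fewer than 3 fragments and these numbers may be too high. By the fitted folds with all values divided by 2, 909 called features were at least 8-fold higher and 259 lower. A stricter test, glmTreat, asks whether a difference exceeds 2-fold, and 2284 features passed as higher (9.3%) and 741 as lower (3.02%).

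**Figure D1:**
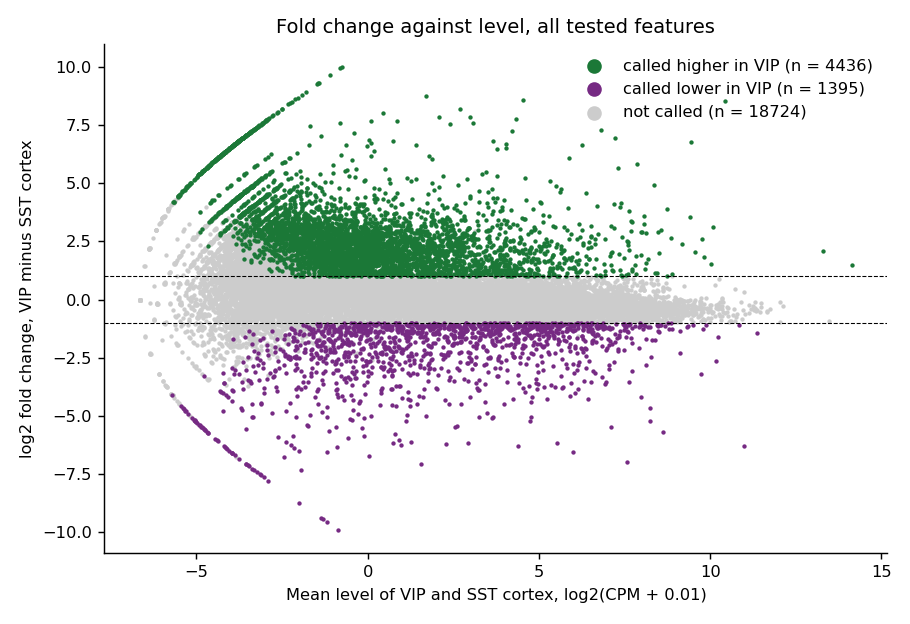
Each point is 1 of 24555 tested features, with the mean level of VIP and SST cortex as log2(CPM + 0.01) on the horizontal axis and the log2 fold change, VIP minus SST, on the vertical axis. Green marks the 4436 features called higher in VIP, purple the 1395 called lower and grey those not called; the dashed lines mark a 2-fold difference, and the green cloud is densest at low levels.

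The libraries of both populations were fully separated for most calls, which is no separate support, because the same libraries gave the calls. In 4072 of the 4436 features higher in VIP (91.8%) the lowest VIP library lay above the highest SST library, and in 1304 of the 1395 lower features (93.5%) every VIP library lay below every SST library. Separation of this kind held for 12758 of all tested features (52%), 6530 in the direction of VIP (26.6%) and 6228 in the direction of SST (25.4%). Of the separated features 51.2% were higher in VIP under TMM, against 58.3% with DESeq2 size factors and 68.9% with library totals.

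GSMG0021962 had the largest difference in favour of VIP among called and separated features with at least 5 CPM in the higher population. Its deposited length is 513 bases. It stood at 6.19, 7.79, 5.06 and 7.06 CPM in VIP replicates 1 to 4, against 0.056 CPM in SST replicate 1 and 0 in SST replicates 2, 3 and 4. The VIP libraries held 3216 counts of it together and the SST libraries 6, all in replicate 1. The fitted log2 fold change was 8.77 (SE 0.91, edgeR adjusted p = 6.51e-09), and its size depends on how so few SST counts are treated. The adjusted p depends on the method too. In DESeq2 this feature had a log2 fold change of 8.97 and a DESeq2 adjusted p of 0.00587. Outside VIP no library of the series held more than 6 counts of it. Without SST replicate 1 no SST count remained and the fitted log2 fold change was 12.54, a value that is no bound.

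GSMG0012209 had the next largest difference, with a deposited length of 2415 bases. It stood at 51.5, 45.9, 39.6 and 49.3 CPM in VIP replicates 1 to 4, against 0.167, 0.077, 0.122 and 0.112 CPM in SST replicates 1 to 4. The populations were far apart and each was narrow, with means of 46.6 ± 5.2 CPM in VIP libraries and 0.12 ± 0.037 CPM in SST libraries (SD, n = 4 each). The log2 fold change was 8.59 (SE 0.77, edgeR adjusted p = 8.86e-10). Means in the other 6 populations ran from 0.065 CPM in Grik hippocampus to 0.268 CPM in Scnn cortex, with no value near that of VIP.

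GSMG0011728, of 1336 bases, had the largest difference in the other direction. It stood at 0, 0.093, 0.053 and 0.018 CPM in VIP replicates 1 to 4, against 6.47, 7.32, 3.7 and 5.75 CPM in SST replicates 1 to 4. The VIP libraries together held 21 counts of it and the SST libraries 2499. The log2 fold change was -7.08 (SE 0.65, edgeR adjusted p = 1.35e-10). In the SST libraries of the hippocampus, which took no part in this contrast, it reached 1.84 ± 0.54 CPM (SD, n = 4), while the means of PV, Scnn, CamK and Grik groups stayed at or below 0.138 CPM.

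GSMG0010975, of 725 bases, was more abundant and showed a graded pattern across interneurons. It stood at 2.12, 2.92, 4.83 and 1.83 CPM in VIP replicates 1 to 4, against 350.9, 408, 334.8 and 403.3 CPM in SST replicates 1 to 4. The log2 fold change was -6.99 (SE 0.31, edgeR adjusted p = 2.68e-16). SST hippocampus was close to SST cortex at 289.6 ± 54.2 CPM, PV cortex lay between at 73.4 ± 13.1 CPM, and Scnn cortex was near VIP at 3.93 ± 0.54 CPM (SD, n = 4 each). Means in the CamK and Grik groups were at most 0.702 CPM. The differences between the other populations are descriptions, with no test.

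**Figure D2:**
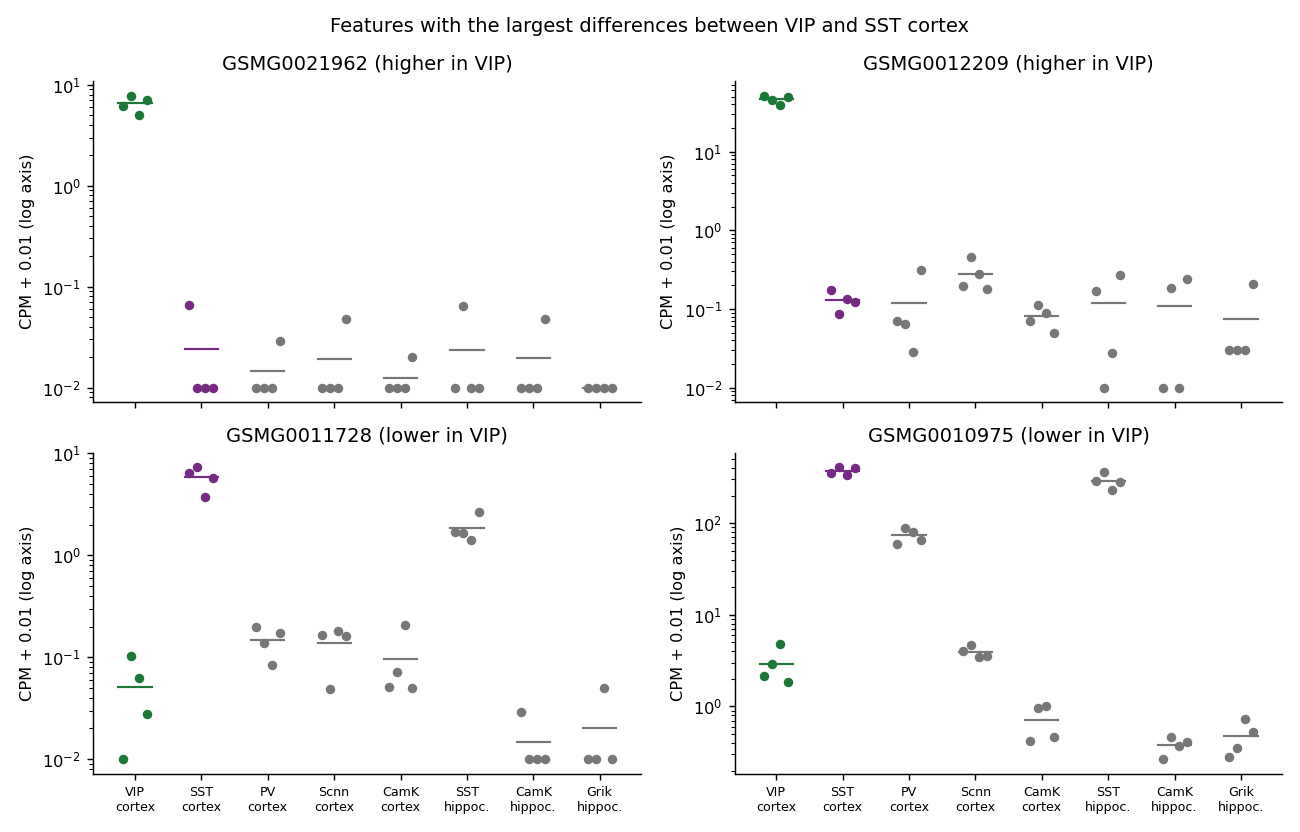
Levels in each of 32 libraries of the 2 features with the largest fold changes in each direction among called, separated features of at least 5 CPM, as CPM plus 0.01 on a log axis; points are libraries, bars are group means, green is VIP cortex, purple is SST cortex and grey the other groups. GSMG0021962 and GSMG0012209 are high in VIP libraries, while GSMG0011728 and GSMG0010975 are high in both SST groups, at 1.84 and 289.6 CPM on average in SST hippocampus.

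Few features were present in all libraries of one population and near absent from the other. Of 24555 tested features, 17 had at least 1 CPM in all 4 VIP libraries and under 0.1 CPM in all 4 SST libraries, and 9 had the reverse. All of them were among the calls, which is no separate support, because the rule that picked them uses the same libraries. Mean levels of the 17 were 1.47 to 13 CPM in VIP and at most 0.081 CPM in SST, and those of the 9 were at most 0.052 CPM in VIP and 1.31 to 5.81 CPM in SST. Of the 17, 13 reached 1 CPM on average in none of the other 6 populations. In PV cortex, CamK cortex and SST hippocampus 0 reached it, against 3 in CamK hippocampus, 2 in Grik hippocampus and 1 in Scnn cortex. Of the 9, 5 reached it in none, 4 reached it in SST hippocampus and 1 in Grik hippocampus. Over all tested features 33.7% reached it in none, beside 50.1% of those higher in VIP and 20.8% of those lower. These sets differ in level, and the median of those higher in VIP was 1.13 CPM in VIP itself.

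The balance of the calls shifted with the level of the features. Over all 32 libraries, levels were grouped by mean CPM. Of 3800 features under 0.1 CPM, 20.7% were called higher in VIP and 2.45% lower. Features this low enter the test only if some group holds enough counts of them. On average 21668 tested features reached 0.1 CPM in a VIP library and 19606 in an SST library. VIP may thus more often be that group, and the filter may set part of the balance in the low tiers. How large this part is was not tested. Of 6076 features between 0.1 and 1 CPM, 33.0% were higher in VIP and 6.09% were lower. Of 5435 features between 1 and 10 CPM, 22.5% were higher and 7.95% lower. Of 7085 features between 10 and 100 CPM, 5.11% were higher against 5.39% that were lower. Above 100 CPM there were 2159 features, with 2.83% higher in VIP and 5.47% lower. Under TMM the share of calls higher in VIP was thus 84.4% between 0.1 and 1 CPM and 34.1% above 100 CPM. Which side had more calls above 10 CPM depends on the scaling. Between 10 and 100 CPM, 362 features were higher and 382 lower under TMM, 401 and 319 with DESeq2 size factors, and 471 and 248 with library totals. Above 100 CPM the numbers were 61 and 118 under TMM, 66 and 100 with DESeq2 size factors, and 82 and 66 with library totals. Below 10 CPM the features higher in VIP outnumbered the lower ones in every tier under these 3 scalings. Among features of at least 1 CPM, 1646 were higher in VIP and 932 lower, or 63.8% higher.

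**Figure D3:**
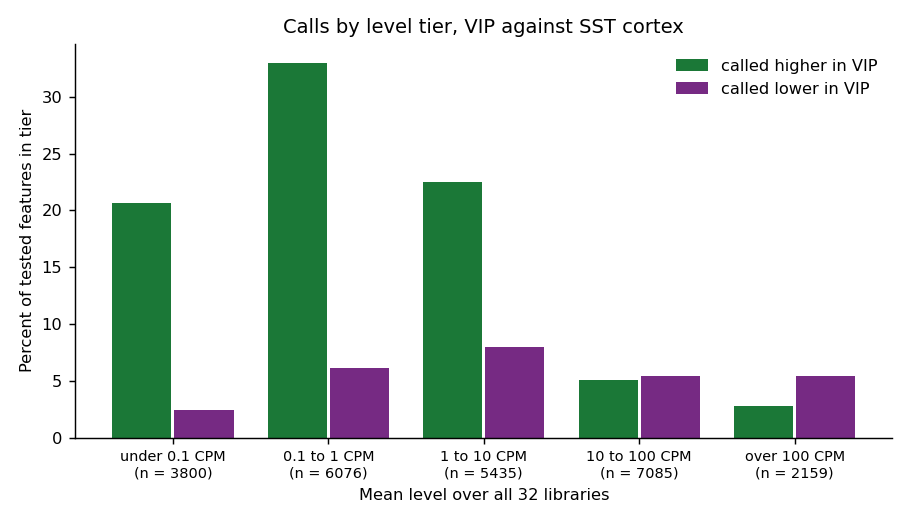
Percent of the tested features in each level tier that were called higher (green) or lower (purple) in VIP than in SST cortex, with tiers by mean CPM over all 32 libraries and the number of features under each. The green bars fall to 2.83% in the tier over 100 CPM, where the purple bar is at 5.47%. With library totals in place of TMM, 82 features in that tier were higher and 66 lower. In the low tiers a feature is tested only if some group, which may be VIP, holds enough counts of it.

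More features were detected in VIP libraries than in SST libraries. At 1 CPM or more there were 15088, 15152, 15483 and 15065 features in VIP replicates 1 to 4, against 14050, 13997, 14043 and 14156 in SST replicates 1 to 4. The groups did not overlap, and the difference in means was 1136 features (p = 0.0286 in a two-sided exact permutation test, which is the lowest that 4 against 4 libraries allow). Adjusted over the 2 measures tested this way, the exact permutation p was 0.0571, which misses 0.05. At 10 CPM or more the groups overlapped, with 9071 ± 31.3 features in VIP and 9070 ± 33.7 in SST (SD, n = 4 each). The 100 most abundant features of each library took 22.4% ± 1.55 of the counts in VIP and 21.4% ± 0.39 in SST, with an exact permutation p of 0.257, two-sided. Without VIP replicate 2 this difference was 1.45 points in favour of VIP, with an exact permutation p of 0.0286. Leaving out any other single library gave an exact permutation p of 0.257 to 0.657, with a difference of 0.234 points without VIP replicate 4. By mean level, 77 of the 100 most abundant features were shared by both populations.

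Features called higher in VIP took 12.1%, 10.8%, 12.8% and 14.0% of the counts of VIP replicates 1 to 4, against 1.86%, 1.87%, 3.68% and 3.62% in SST replicates 1 to 4. Replicates 3 and 4 of SST were thus higher than replicates 1 and 2. A pair of very abundant features, the 2 with the most counts among those called higher in VIP, were the main part of that difference. Their joint share was 5.26%, 3.63%, 4.53% and 6.73% in VIP replicates 1 to 4, against 0.533%, 0.592%, 2.27% and 2.05% in SST replicates 1 to 4. Without the pair the share was 7.77% ± 0.61 in VIP and 1.41% ± 0.14 in SST (SD, n = 4 each), and the SST libraries lay between 1.29% and 1.60%. Features called lower in VIP took 2.89% ± 0.081 of the counts in VIP and 7.87% ± 0.36 in SST. These shares are descriptions, with no test, because the same libraries gave the calls. Without SST replicates 3 and 4, 5269 features were called, 3732 higher and 1537 lower.

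Ranked per kilobase of deposited length, the 10 most abundant features called higher in VIP had VIP means from 548 to 12682 CPM per kilobase. Of these, 6 were at least 8-fold higher in VIP, and for 6 no other population of the series had a higher mean than VIP. The pair above led this list, with Scnn cortex above VIP for both. Next came a feature at 2011 CPM per kilobase in VIP and 5.47 in SST. The 10 most abundant features called lower in VIP had SST means from 551 to 6694 CPM per kilobase, and 2 of them were at least 8-fold lower in VIP. These 2 were rank 1, at 84.9 CPM per kilobase in VIP and 6694 in SST, and rank 6, at 39.3 in VIP and 1007 in SST. Rank 2 stood at 577 in VIP and 3549 in SST, with a log2 fold change of -2.62, which is under 8-fold. For ranks 1 and 2 the highest of the other populations was SST hippocampus. The libraries of VIP and SST did not overlap for any of these 20 features, which were called from the same libraries. Features called higher in VIP were longer, with a median deposited length of 2081 bases, than those called lower (1687 bases) and than all tested features (1639 bases). Among features of at least 1 CPM these medians were 1852, 1687 and 1472 bases.

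Many features were alike in both populations within a stated margin. For 10780 features (43.9% of those tested) the 95% interval of the fold change lay within 2-fold in either direction, and 10355 of these had a mean of at least 1 CPM, which is 70.5% of the features at that level. For the other features that were not called no interval within 2-fold was obtained, and at this depth and spread the data do not say whether they differ by that much.

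The features that separate VIP from SST were then followed in the 24 libraries that took no part in the contrast. Features called higher in VIP were low in most populations, with a median of 1.13 CPM in VIP and 0.239 CPM in SST, and the next highest median was 0.657 CPM in Scnn cortex. In the remaining groups it ran from 0.217 CPM in CamK cortex to 0.337 CPM in SST hippocampus. Scnn cortex was the highest of the 6 other populations for 2320 of these 4436 features (52.3%), against 22.0% of all tested features. Of the features higher in VIP, 50.1% reached 1 CPM on average in none of these 6 populations, beside 33.7% of all tested features. Many of them were low in VIP too, since 2008 of the 4436 reached 1 CPM in all 4 VIP libraries. All tested features had a median of 3.13 CPM in VIP and are no background matched in level. These shares therefore do not show that the features are particular to VIP.

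Features called lower in VIP had a median of 1.37 CPM in VIP and 5.16 CPM in SST cortex. Their median was 3.78 CPM in SST hippocampus and 2.95 CPM in PV cortex, the next highest, and 1.17 to 1.83 CPM in the Scnn, CamK and Grik groups. SST hippocampus was the highest of the 6 other populations for 32.5% of them and PV cortex for 31.7%, against 14.4% and 22.5% of all tested features. In 41.6% of these features all 6 other populations reached 1 CPM on average, against 15.3% of the features higher in VIP and 49.7% of all tested features. These sets are not matched in level.

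**Figure D4:**
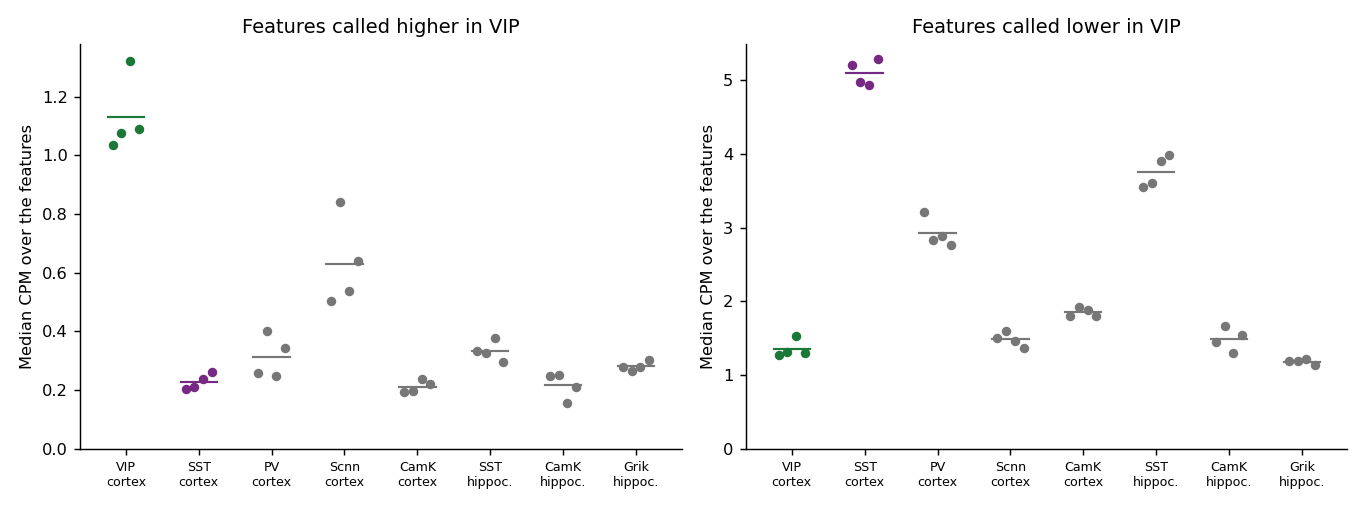
Median CPM over the 4436 features called higher in VIP (left) and the 1395 called lower (right) in each of 32 libraries; points are libraries, bars are group means, green is VIP cortex, purple is SST cortex and grey the groups that took no part in the contrast. On the left Scnn cortex comes after VIP, and on the right SST hippocampus and PV cortex come after SST cortex.

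Scnn and CamK neurons of the cortex gave a contrast that shares no library with VIP against SST. Of all tested features 19.6% were called between Scnn and CamK cortex, 13.7% higher in Scnn and 5.94% lower. Of the 4436 features higher in VIP, 2085 (47.0%) were also called higher in Scnn and 316 (7.12%) lower. These 2085 made up 62.2% of all features higher in Scnn, while features higher in VIP were 18.1% of those tested. Of the 1395 features lower in VIP, 124 (8.89%) were higher in Scnn and 260 (18.6%) lower. The share of VIP-higher features that were also higher in Scnn exceeded that of all tested features at each level, with 55.3% against 25.8% between 0.1 and 1 CPM, 48.5% against 16.1% between 1 and 10 CPM, and 25.4% against 3.06% between 10 and 100 CPM. The Scnn libraries also varied in the share of counts in VIP-higher features, from 7.06% to 18.3%, the highest being replicate 2. Without Scnn replicate 2 the share called higher in Scnn was 38.4% of the features higher in VIP and 11.3% of all tested features. A low feature enters the test only if some group holds enough counts of it, and VIP or Scnn libraries could be that group. The part of other cell types in these features was not tested.

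SST neurons of the hippocampus were set against PV neurons of the cortex, which again shares no library with VIP against SST, although region and title differ there too. Of all tested features 17.9% were called, 10.2% higher in SST hippocampus and 7.67% lower. Of the 1395 features lower in VIP than in SST cortex, 433 (31.0%) were higher in SST hippocampus than in PV and 247 (17.7%) were lower. Of the 4436 features higher in VIP, 592 (13.3%) were higher and 456 (10.3%) lower. For the features lower in VIP both shares stood above those of all tested features, and the share on the SST side was the larger.

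The CamK population was sampled under both kinds of title, in hippocampus with the W and in cortex without. Of all tested features 13.9% were called, 5.43% higher in CamK hippocampus and 8.46% lower. Of the features higher in VIP, whose titles carry the W, 493 (11.1%) were higher and 586 (13.2%) lower in CamK hippocampus. Of the features lower in VIP, 151 (10.8%) were higher and 273 (19.6%) lower. With all levels pooled, both directions stood above the share of all tested features, for features higher in VIP and for features lower in VIP. For features higher in VIP this did not hold under 0.1 CPM, with 3.06% higher and 4.84% lower against 3.11% and 4.87%. Between 0.1 and 1 CPM the shares were 10.1% and 10.7% against 8.21% and 10.4%. Between 1 and 10 CPM they were 16.4% and 19.9% against 8.37% and 12.7%. The features higher in VIP, 18.1% of all tested features, made up 37.0% of the features higher in CamK hippocampus and 28.2% of those lower there. A comparison within the W titles, VIP cortex against SST hippocampus, uses the same VIP libraries and adds a difference in region. It called 22.1% of tested features, with 3973 higher in VIP (16.2% of those tested) and 1454 lower (5.92%).

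**Figure D5:**
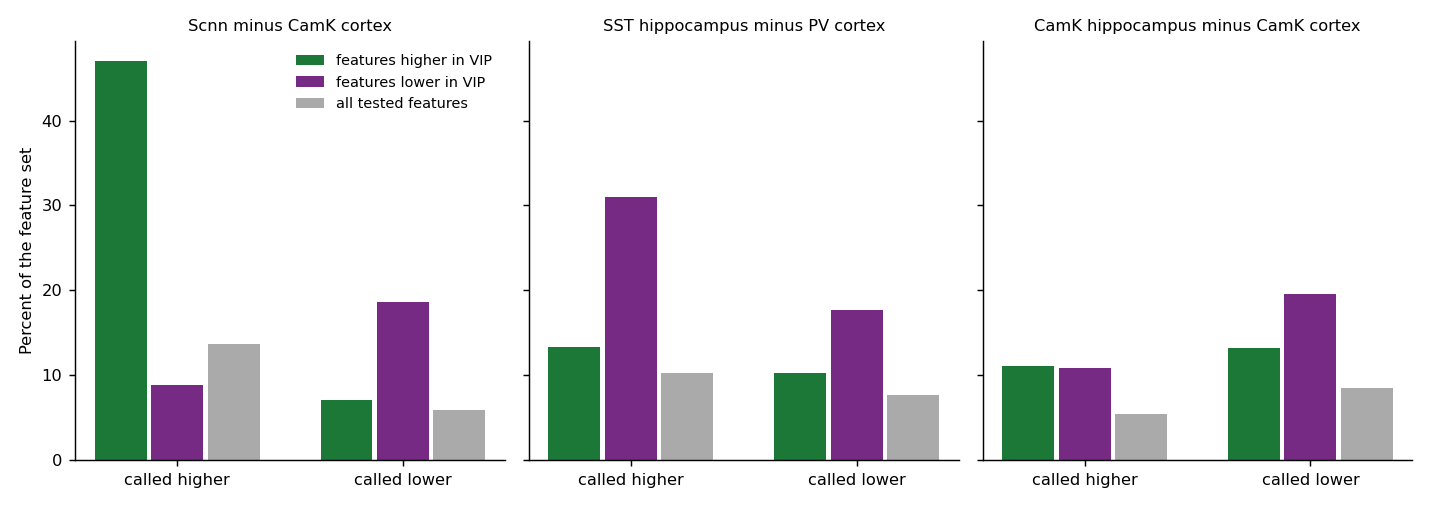
Percent of features called higher or lower in 3 contrasts that share no library with VIP against SST cortex, for features higher in VIP (green), features lower in VIP (purple) and all tested features (grey). The tallest bar is the 47.0% of VIP-higher features that were higher in Scnn than in CamK cortex, beside 13.7% of all tested features.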

How the data were processed

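Per the labels' protocols, a TruSeq stranded poly(A) kit turned 50 ng of ribosome-associated RNA into each library. The submitters' processing notes list GRCm38, featureCounts, SAMtools, Picard and FastQC, without role or version. No source used here gives the aligner, annotation, counting mode or use of strand, so overlapping, antisense or near-identical features are uncertain. The authors deposited expected counts for 56459 features. Of values above 0, 20.1% were whole within 1e-06, and 93.6% of whole values under 30 were even, so both mates of a pair appear to be counted. A further 12 per-sample columns match no sample in the labels and were left out. The deposited length is defined in no source used here and served only for medians and levels per kilobase.

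Counts were rounded and fitted in edgeR 4.0.16 (R 4.3.3) over all 32 libraries, with filterByExpr (24555 features, holding 99.98% of the VIP and SST counts), TMM scaling and glmQLFit with robust estimation, the 8 groups being the only terms (24 residual degrees of freedom). A standard error is the log2 fold change over the square root of F. The named features are the 2 largest log2 fold changes each way among called features with at least 5 CPM in the higher group and no overlap of libraries, because identifiers carry no gene names. The comparison and its rules were chosen with earlier results of these data known. Library measures were compared by exact permutation tests. Alternatives included DESeq2 1.42.0, other filters and scalings, a replicate block and leaving out libraries.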

Additional observations from a re-analysis of the deposited data

Results flagged for a closer look

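In groups of 4, a library was set aside for a closer look when its gap to the nearest other library, divided by the range of the group, was above Dixon's 95% critical value for 4 values. Of 64 sets of 4 values, 14 met this. Chance gives about 1 in 20 for continuous values, but 8 of the 14 sets hold 3 libraries at 0 counts, where any count in the remaining library meets the limit and that rate does not apply. The share of counts in the 100 most abundant features was 20.8% in SST cortex replicate 1, below the other SST libraries. The median level of features lower in VIP was 1.53 CPM in VIP cortex replicate 3, above the other VIP libraries. The other 12 concern named features at very low levels. GSMG0021962 was above the rest of its group at 0.056 CPM in SST cortex replicate 1, 0.019 CPM in PV cortex replicate 4, 0.038 CPM in Scnn cortex replicate 4, 0.00998 CPM in CamK cortex replicate 4, 0.054 CPM in SST hippocampus replicate 2 and 0.038 CPM in CamK hippocampus replicate 5, each beside 3 libraries at 0. GSMG0012209 stood out at 0.304 CPM in PV cortex replicate 4 and 0.201 CPM in Grik hippocampus replicate 6. GSMG0011728 was lower than the rest at 0.039 CPM in Scnn cortex replicate 2. It was higher than the rest at 0.198 CPM in CamK cortex replicate 3, 0.019 CPM in CamK hippocampus replicate 2 and 0.0400 CPM in Grik hippocampus replicate 5.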

How the results depend on the processing

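The number of called features stayed within 1.5 times of 5831 under DESeq2 size factors, DESeq2, no filter on low counts, values divided by 2, the 8 or the 20 cortical libraries alone and SST hippocampus in place of SST cortex. It was 12458 with no fold threshold, 3025 with glmTreat, 2578 when limited to means of 1 CPM or more and 3702 under a filter of 1 CPM in at least 4 libraries. At 8-fold or more it was 1134, 328 and 602 in the last 3, against 1719. Over the settings that kept the number of calls, it ran from 1168 with values divided by 2 to 2185 with no filter on low counts. The filters and fold rules test or admit other numbers of features by construction. The share of calls higher in VIP was 76.1% and turned to 49.0% with no fold threshold. It was 63.8% at a mean of at least 1 CPM, 72.3% under the stricter filter, 79.1% with DESeq2 size factors, 79.6% in DESeq2, 78.9% with the 8 libraries alone, 74.6% with the 20 cortical libraries and 73.2% against SST hippocampus. With SST cortex replicates 3 and 4 left out together, an alternative added after the data were seen, it was 70.8%. Also added then were library totals without TMM, with 84.0% higher, and both other scalings with no fold threshold, which gave 12088 calls (56.5% higher) with DESeq2 size factors and 11856 (68.6% higher) with library totals. The cause of these shifts was not tested. With the replicate number as a block in the 8 libraries, there were 5777 calls, 78.6% on the VIP side. The numbers were not taken to pair the libraries in the main fit. The deviations of same-numbered VIP and SST libraries correlated at 0.017 to 0.094, and every VIP library correlated best with its own number. Whether same-numbered libraries share a batch was not tested.

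Leaving out each library in turn gave 5234 to 5927 calls, 71.1% to 80.2% of them higher in VIP, and 1606 to 2171 at 8-fold or more. Features higher in both VIP and Scnn numbered 1319 under the stricter filter, against 2085. Features present in VIP and near absent in SST numbered 26 without TMM, against 17. The VIP excess in detected features was 1.25 at 10 CPM (exact permutation p = 0.886). The share of counts in the 10 most abundant features was 2.54 points higher in VIP (exact permutation p = 0.0286, not adjusted). The pair of very abundant features called higher in VIP alone took 5.04% of the counts in VIP and 1.36% in SST. The share in the top 10 was not compared without that pair. For the top 1000 the difference was -1.07 points (exact permutation p = 0.114). For the top 100 the difference was 0.234 to 1.45 points when a library was left out. All 4 named features kept direction and call under the 16 alternatives run for each.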
